A study of Homo sapiens with 8 samples.

Results

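DAXX and DNMT1 binding in control PC3 cells was compared peak by peak. The members were the 59761 DAXX peaks and the 2234 DNMT1 peaks called on chromosomes 1 to 22, X and Y in these cells, 61995 of the 249824 peaks in the 6 lists of the series. A pair with at least 1 bp in common was called shared, which gave 4 sets of 1174 DAXX peaks with DNMT1, 58587 DAXX-only peaks, 1174 DNMT1 peaks on DAXX and 1060 DNMT1-only peaks. PC3 is a human prostate cancer line derived from a bone metastasis. ChIP-Seq, the sequencing of DNA that an antibody pulls down with the bound protein, was done with antibodies to DAXX, DNMT1 and H3(Lys4), a histone H3 mark at Lys4 whose methylation state the labels do not spell out. The series also holds cells in which DAXX was stably depleted by lentiviral shRNA and puromycin selection (K/D, for knockdown). The control cells are called WT in the labels and a control shRNA line in the series text, so WT stands here for either. Each group was 1 library, so no test between lists was possible, and every interval given is a 95% binomial interval that covers counting error among peaks only.

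DAXX is a histone chaperone that deposits histone H3.3 together with ATRX and that also acts as a transcriptional co-repressor. DNMT1 is the maintenance DNA methyltransferase, which copies the methylation of CpG dinucleotides to the new DNA strand after replication. Histone H3 methylated at Lys4 marks promoters and, in its lower methylation states, enhancers. Neither is a sequence-specific transcription factor, so motifs of other factors under the peaks describe the sites and not the proteins.

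The sequences below are examples that hold the words on which the sets differed most. All are the plus strand of the reference genome (GRCh37, the build of hg19), 5′ to 3′, over the deposited peak. They were taken among the first 10 intronic or intergenic peaks of a set in deposited order. Capitals mark the AP-1 site TGACTCA, which FOS and JUN dimers bind, in DNMT1 peaks that lie on DAXX.
DNMT1 on DAXX, ARID5B, chr10:63836785-63836913: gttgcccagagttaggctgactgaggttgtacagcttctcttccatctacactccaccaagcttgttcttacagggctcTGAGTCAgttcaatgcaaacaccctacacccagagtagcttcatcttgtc
DNMT1 on DAXX, intergenic, chr18:51549970-51550098: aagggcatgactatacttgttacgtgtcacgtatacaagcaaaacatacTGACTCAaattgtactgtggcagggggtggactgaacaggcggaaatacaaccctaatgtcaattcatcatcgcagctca
DNMT1 on DAXX, intergenic, chr1:151913971-151914099: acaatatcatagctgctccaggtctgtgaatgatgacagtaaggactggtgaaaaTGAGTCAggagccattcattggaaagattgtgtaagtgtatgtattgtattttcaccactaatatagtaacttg

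Capitals mark ACAGTC, a 6-base word frequent in DNMT1 peaks and chosen after the values were seen, in DNMT1 peaks with no DAXX peak.
DNMT1 only, MAML3, chr4:141071940-141072068: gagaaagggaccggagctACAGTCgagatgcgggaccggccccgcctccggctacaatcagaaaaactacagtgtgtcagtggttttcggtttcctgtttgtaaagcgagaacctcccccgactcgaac
DNMT1 only, intergenic, chr3:150089646-150089774: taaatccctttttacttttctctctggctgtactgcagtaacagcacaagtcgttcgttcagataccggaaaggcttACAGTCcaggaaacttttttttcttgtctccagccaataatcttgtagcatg

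In peaks of DAXX only, capitals mark AP-1 sites, ACAGTC and the nuclear receptor half-site TGACCT, the core recognised by receptors such as the retinoic acid receptors. Each word also counts as its reverse complement.
DAXX only, NRP1, chr10:33553233-33553405: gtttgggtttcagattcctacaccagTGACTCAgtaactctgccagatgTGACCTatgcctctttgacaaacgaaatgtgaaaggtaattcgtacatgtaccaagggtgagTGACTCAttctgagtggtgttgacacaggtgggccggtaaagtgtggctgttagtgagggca
DAXX only, intergenic, chr14:56269907-56270079: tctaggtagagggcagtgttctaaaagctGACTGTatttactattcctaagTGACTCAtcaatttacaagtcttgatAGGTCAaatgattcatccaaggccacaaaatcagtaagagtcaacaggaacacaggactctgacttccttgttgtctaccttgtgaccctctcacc
DAXX only, ANXA11, chr10:81923492-81923664: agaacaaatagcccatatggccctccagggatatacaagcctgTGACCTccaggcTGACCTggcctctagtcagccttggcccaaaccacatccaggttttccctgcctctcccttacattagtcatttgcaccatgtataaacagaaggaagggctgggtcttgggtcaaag

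The DAXX list was far larger than the DNMT1 list at a similar depth. WT DAXX had 15208845 tags, of which 15.8% lay in peaks, and WT DNMT1 had 14391288 tags, of which 0.263% lay in peaks. The mean was 40.1 tags per DAXX peak and 16.9 per DNMT1 peak. Comparison with the WT input, which served both lists, removed 34.3% of the putative DAXX peaks and 79.6% of the putative DNMT1 peaks. The median peak width was 173 bp for DAXX and 129 bp for DNMT1. A peak missing from the DNMT1 list is therefore one that was not called, and at this enrichment it is not shown to be free of DNMT1.

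Of all DAXX peaks 1.96% carried a DNMT1 peak (interval 1.85 to 2.08), and of all DNMT1 peaks 52.6% lay on a DAXX peak (interval 50.5 to 54.6). Pairs were strictly 1 to 1, with 1174 peaks of each list in 1174 pairs. The centres of a pair were a median 41.5 bp apart (quartiles 19 to 73.75 bp), and 696 pairs (59.3%) had centres within 50 bp. In 344 pairs (29.3%) the DNMT1 peak lay wholly inside the DAXX peak. The median signed distance along the plus strand was -5.5 bp, DNMT1 minus DAXX.

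Shared peaks were commoner near the top of both lists, which HOMER, the peak caller, writes in order of strength. The DAXX peaks at places 1 to 11 all lay on chromosomes 8, 10 and 14. The part of DNA copy number in list order was not tested. In the first 10% of the DAXX list 3.35% of the peaks carried DNMT1 (200 of 5977, interval 2.90 to 3.83), and in the last 10% 0.435% did (26 of 5976, interval 0.284 to 0.637). In the first 10% of the DNMT1 list 57.6% of the peaks lay on DAXX (129 of 224, interval 50.8 to 64.1), the share was highest in the third 10% with 64.3% (144 of 224, interval 57.6 to 70.6), and it was 39.0% in the last 10% (87 of 223, interval 32.6 to 45.8). Of the first 100 DAXX peaks 1 carried DNMT1 (1%, interval 0.0253 to 5.45), of the first 500 peaks 18 did (3.6%, interval 2.15 to 5.63), and of the first 2234 peaks, as many as the DNMT1 list holds, 90 did (4.03%, interval 3.25 to 4.93). The DAXX peaks in pairs had a median place at 33.3% of their list (quartiles 15.9 to 55.8%), and the DNMT1 peaks in pairs a median place at 43.8% of theirs.

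**Figure D1:**
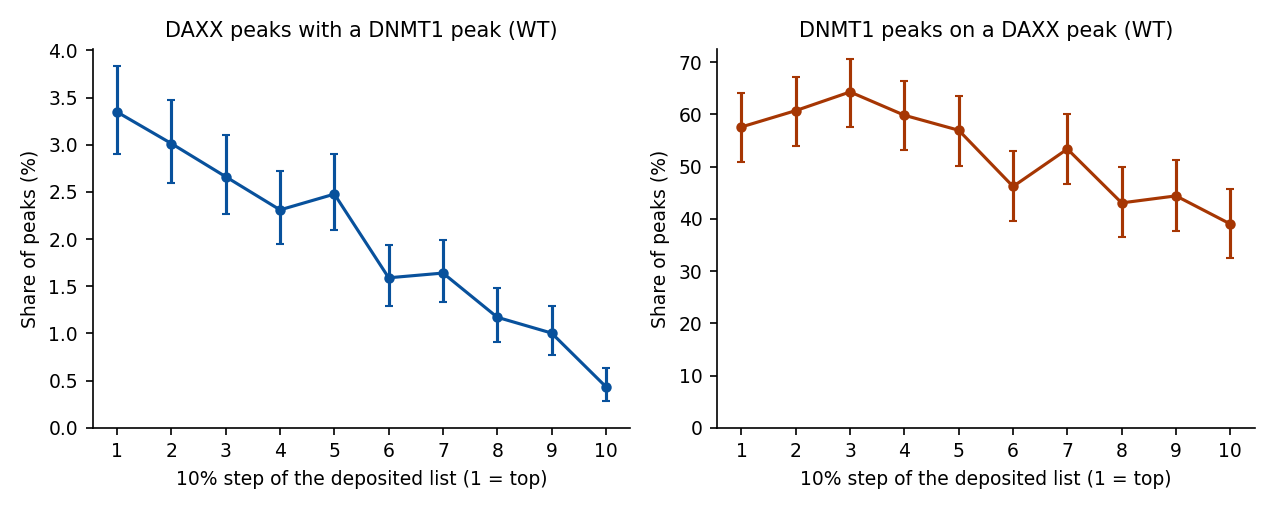
Share of WT DAXX peaks with a DNMT1 peak (left, %) and of WT DNMT1 peaks on a DAXX peak (right, %) in each 10% of the deposited list, with exact 95% binomial intervals; the y axes differ in scale. The DAXX share is 3.35% in the first 10% and 0.435% in the last, and the DNMT1 share stays between 39.0% and 64.3%.

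DNMT1 peaks with no DAXX peak often lay close to one. Their median distance to the nearest DAXX centre was 5001.5 bp (quartiles 899 to 17825.5 bp), against 28161.5 bp for a regular grid of points every 50 kb over the genome. Within 1000 bp of a DAXX centre lay 280 of the 1060 peaks (26.4%), against 4.05% of the grid points, and within 10 kb lay 674 (63.6%), against 27.3% of the grid points. Within 100 kb lay 1038 (97.9%). Other DAXX peaks also surrounded the shared sites. Within 10 kb of a DAXX peak with DNMT1 lay a mean of 1.21 other DAXX peaks and 32.2% had none, while DAXX-only peaks had a mean of 1.03 and 40.0% had none. DNMT1-only peaks were close to the shared sites, with a mean of 1.17 DAXX peaks within 10 kb and 36.4% with none.

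By chromosome the share of DNMT1 peaks on DAXX ran between 34.2% on chromosome 10 (53 of 155, interval 26.8 to 42.2) and 71.4% on chromosome X (25 of 35, interval 53.7 to 85.4), leaving aside chromosome Y with 1 DNMT1 peak and 0 DAXX peaks. Chromosomes 14, 8 and 10 had the most DNMT1 peaks per 100 DAXX peaks, with 6.71, 6.23 and 5.40, and shares on DAXX of 40.0%, 44.7% and 34.2%. DNMT1 peaks were dense in a few stretches. The 10 bins of 5 Mb with most DNMT1 peaks held 205 of them (9.18% of the DNMT1 list, against 3.08% of the DAXX list), among them 50 to 55 Mb of chromosome 14 with 30 peaks, 65 to 70 Mb of chromosome 14 with 24 and 30 to 35 Mb of chromosome 10 with 23. These bins were chosen by their DNMT1 counts, so an excess of DNMT1 over DAXX peaks in them follows in part from the choice. No bins chosen in another way were compared. In these bins 34.1% of the DNMT1 peaks lay on DAXX (70 of 205, interval 27.7 to 41.1), against 54.4% elsewhere (1104 of 2029, interval 52.2 to 56.6). The part of DNA copy number in these counts was not tested.

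Shared peaks lay away from promoters more often than DAXX-only peaks did. Promoters reached from 1000 bp before to 100 bp after the transcription start site (TSS) of protein-coding transcripts. They held 4.51% of DAXX peaks with DNMT1 (53 of 1174, interval 3.4 to 5.86) and 7.10% of DAXX-only peaks (4159 of 58587, interval 6.89 to 7.31). The difference was -2.58 percentage points (interval -3.65 to -1.23). Among the first 50% of each list it was -0.79 points (interval -2.57 to 1.65), so the lower promoter share was not distinguishable there. DNMT1 peaks on DAXX (4.6%) and DNMT1-only peaks (4.62%) had nearly equal promoter shares, with a difference of -0.02 points (interval -1.81 to 1.73). Introns held 51.5% of DAXX peaks with DNMT1 and 44.9% of DAXX-only peaks, and 51.4% of DNMT1 peaks on DAXX and 50.9% of DNMT1-only peaks. Of the genome's bases 1.12% are promoter, 2.61% exon, 39.7% intron and 56.6% intergenic by the same rule. The median distance to the nearest TSS was 44321.5 bp for shared and 36532 bp for DAXX-only peaks, and 44320 bp for DNMT1 peaks on DAXX and 44679 bp for DNMT1-only peaks, against 68399 bp for grid points.

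**Figure D2:**
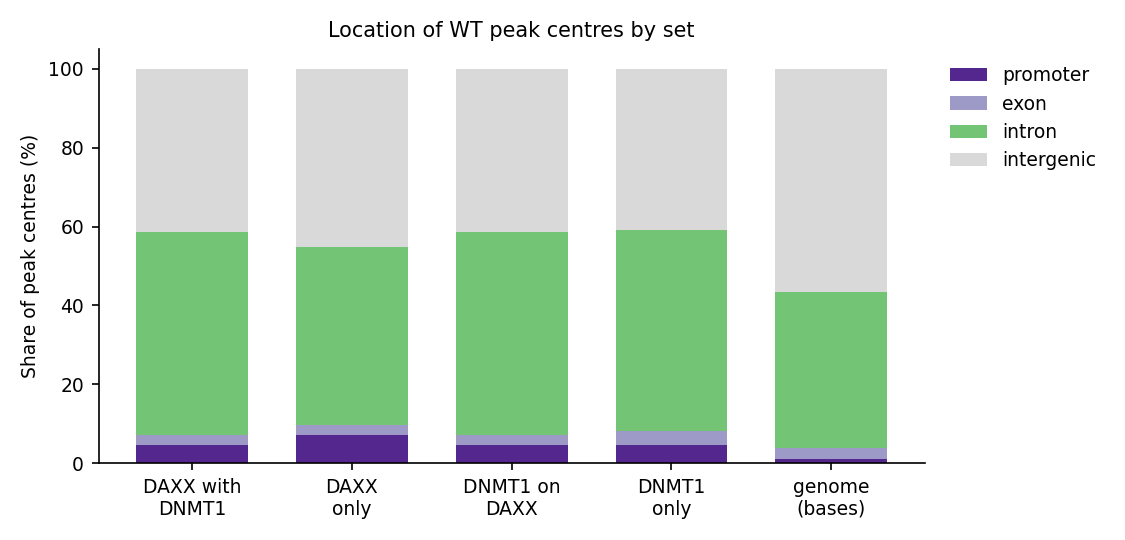
Share of WT peak centres (y axis, %) in promoters, exons, introns and intergenic sequence for the 4 sets, with the share of genome bases at the right. Promoters hold 7.10% of DAXX-only peaks and 4.51 to 4.62% of the other sets, and 1.12% of the genome.

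Shared peaks lay on H3(Lys4) regions more often than the single peaks of either list. A WT H3(Lys4) region covered 43.7% of DAXX peaks with DNMT1 (513 of 1174, interval 40.8 to 46.6) and 37.3% of DAXX-only peaks (21825 of 58587, interval 36.9 to 37.6), a difference of 6.44 points (interval 3.61 to 9.32). It covered 43.4% of DNMT1 peaks on DAXX (509 of 1174, interval 40.5 to 46.2) and 31.4% of DNMT1-only peaks (333 of 1060, interval 28.6 to 34.3), a difference of 11.9 points (interval 7.93 to 15.9). Outside promoters the shares were 43.8% and 36.4% for the DAXX sets and 43.6% and 30.7% for the DNMT1 sets. The gap differed along the list. In the first 25% of the DNMT1 list 32.9% of the peaks on DAXX (108 of 328) and 32.9% of the DNMT1-only peaks (76 of 231) lay on a region, and in the last 25% 54.0% (127 of 235) and 30.3% (98 of 323) did. Among the first 50% of each list the DNMT1 difference was 0.10 points (interval -5.50 to 5.74) and the DAXX difference 1.22 points (interval -2.87 to 5.51). Both lists were shortened there, so a peak with its partner in the other list's last 50% counted as single. Against the full DAXX list, the second 25% of the DNMT1 list had 42.8% on a region among peaks on DAXX and 31.2% among DNMT1-only peaks. Within 25% steps of the DAXX list, DAXX peaks with DNMT1 had the higher share in each of 4, by 8.72, 4.96, 7.0 and 12.5 points, with an interval that reached below 0 in the second (-0.06 to 10.1).

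**Figure D3:**
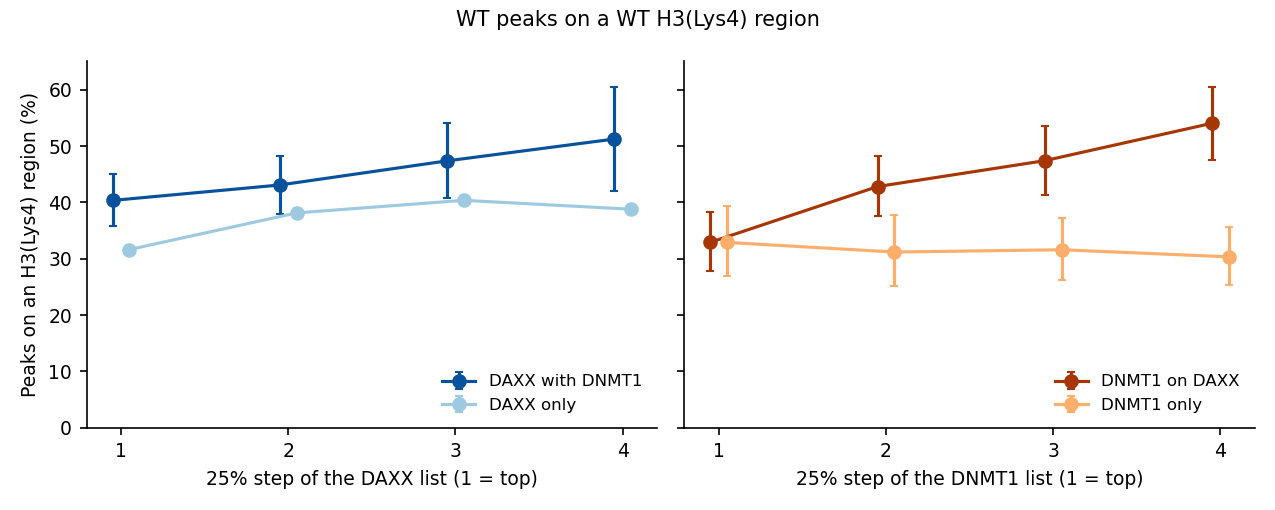
Share of WT peaks on a WT H3(Lys4) region (y axis, %) by 25% step of the deposited DAXX list (left) and DNMT1 list (right), with exact 95% binomial intervals. DNMT1 peaks on DAXX and DNMT1-only peaks both start at 32.9% in the first 25% and are at 54.0% and 30.3% in the last.

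H3(Lys4) regions that held both proteins were wide. The 574 regions with a DAXX and a DNMT1 peak had a median width of 1633 bp (quartiles 1029 to 2669 bp). The 19538 regions with DAXX and no DNMT1 had a median of 1089 bp, the 249 regions with DNMT1 and no DAXX a median of 1018 bp, and the 51703 regions with neither a median of 649 bp. A wider region has more room for a peak, and no adjustment for width was made. Within their regions the DAXX peaks with DNMT1 lay a median 463 bp from the nearer edge and DAXX-only peaks 278 bp, while DNMT1 peaks on DAXX lay 460 bp and DNMT1-only peaks 315 bp from it. Scaled by width, with 0 at the middle and 1 at the edge of the region, the median distance from the middle was 0.451 and 0.496 for the DAXX sets and 0.429 and 0.465 for the DNMT1 sets.

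The DNA under the shared peaks held less GC and fewer CpG than that of DAXX-only peaks. Over 200 bp about the centre the median GC content was 42.5% in DAXX peaks with DNMT1 and 44.5% in DAXX-only peaks, and 42.0% in DNMT1 peaks on DAXX and 40.0% in DNMT1-only peaks. The windows 2 kb to either side had medians of 41.0%, 42.0%, 41.0% and 40.5% for the same sets in that order, and the grid 40.0%. Mean GC was 43.4% ± 7.65 (SD over 1174 peaks) against 46.1% ± 9.90 (SD over 58587 peaks) for the DAXX sets, and 42.9% ± 7.60 (SD over 1174 peaks) against 40.9% ± 8.09 (SD over 1060 peaks) for the DNMT1 sets. The gap between the DAXX sets held in each 25% step of the DAXX list, with differences in the median of -2, -1.5, -2.5 and -4 points.

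CpG dinucleotides, the substrate of DNMT1, were close in mean number under DNMT1 peaks and in the DNA beside them. DNMT1 peaks on DAXX held a mean of 2.25 ± 3.4 CpG per 200 bp (SD) and their neighbouring windows 2.14 ± 2.92, and DNMT1-only peaks held 2.04 ± 2.95 and their neighbours 2.18 ± 3.3. DAXX peaks with DNMT1 held 2.30 ± 3.44 and DAXX-only peaks 3.24 ± 4.94. CpG-rich windows were defined over 500 bp about the centre. They had more than 50% GC and a CpG ratio, observed over that expected from base content, above 0.6. Such windows made up 3.07% of DAXX peaks with DNMT1 (interval 2.16 to 4.22) and 7.01% of DAXX-only peaks (interval 6.81 to 7.22). They made up 2.81% of DNMT1 peaks on DAXX (interval 1.94 to 3.93) and 2.36% of DNMT1-only peaks (interval 1.53 to 3.46). In the neighbouring windows the shares were 1.79% and 2.08% for the DAXX sets, and 1.58% (interval 1.11 to 2.17) and 2.22% (interval 1.63 to 2.94) for the DNMT1 sets. Windows of 200 bp with no CpG were 22.4% of DNMT1 peaks on DAXX and 25.4% of their neighbours, and 27.8% of DNMT1-only peaks and 26.7% of their neighbours. Of promoter peaks 60.4% were CpG-rich by that rule among the 53 DAXX peaks with DNMT1 and 64.5% among the 4159 of DAXX only, while 57.4% were among the 54 DNMT1 peaks on DAXX and 26.5% among the 49 of DNMT1 only. Outside promoters the shares were 0.357% and 2.62% for the DAXX sets and 0.179% and 1.19% for the DNMT1 sets.

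AP-1 sites were about as common in shared as in DAXX-only peaks, and rarer in DNMT1-only peaks. The site TGACTCA stood in 38.2% of DAXX peaks with DNMT1 (449 of 1174, interval 35.5 to 41.1) and in 36.1% of DAXX-only peaks (interval 35.7 to 36.5), a difference of 2.15 points (interval -0.61 to 4.99). It stood in 35.6% of DNMT1 peaks on DAXX (418 of 1174, interval 32.9 to 38.4) and in 18.8% of DNMT1-only peaks (199 of 1060, interval 16.5 to 21.3), a difference of 16.8 points (interval 13.2 to 20.4). Windows 2 kb away held it in 3.07 to 3.62%, so DNMT1-only peaks were also above their own neighbours, by 6.12-fold. Among the first 50% of each list the DNMT1 difference was 6.39 points (interval 0.88 to 11.9), and in 100 bp about the centre it was 9.55 points (interval 6.52 to 12.5). With both lists shortened, DNMT1 peaks on the last 50% of DAXX peaks counted as DNMT1-only. Against the full DAXX list the shares on and off DAXX were 34.8% and 27.3% in the first 25% of the DNMT1 list. They were 39.6% and 23.4% in the second. In 25% steps of the DAXX list the share was 40.1% with DNMT1 and 44% without in the first, 37.9% and 38.1% in the second, 39.9% and 33.4% in the third and 28.9% and 29.1% in the last. In the 454 pairs with a site within 100 bp of the middle between both centres, the site lay a median 27.5 bp from the DAXX centre and 42.5 bp from the DNMT1 centre, and it was nearer to the DAXX centre in 279 (61.5%).

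The nuclear receptor half-site TGACCT separated the sets in both lists. It stood in 19.2% of DAXX peaks with DNMT1 (225 of 1174, interval 17.0 to 21.5) and in 31.1% of DAXX-only peaks (18195 of 58587, interval 30.7 to 31.4), a difference of -11.9 points (interval -14.1 to -9.51). It stood in 15.2% of DNMT1 peaks on DAXX (178 of 1174, interval 13.2 to 17.3) and in 5.85% of DNMT1-only peaks (62 of 1060, interval 4.51 to 7.44). The neighbouring windows of the 4 sets held it in 13.1 to 13.8%, so the ratio to the neighbours was 2.25 in DAXX-only peaks and 0.443 in DNMT1-only peaks. The gap between the DAXX sets stood in all 25% steps of the DAXX list, with 30.7% and 38.6% in the first, 13.6% and 29.4% in the second, 11% and 28.0% in the third and 8.26% and 28.3% in the last. In DAXX peaks with DNMT1 the share was thus lower in each later step, while in DAXX-only peaks the last 3 steps were alike within 2 points.

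Some half-sites lay in words typical of repeats, and no repeat annotation was used. The word GAGGTCAG, which holds the half-site on the other strand and is typical of Alu repeats, stood in 2.56% of DAXX peaks with DNMT1 and 5.51% of DAXX-only peaks, and in 1.28% of DNMT1 peaks on DAXX and 0.849% of DNMT1-only peaks, against 3.59 to 4.27% of their neighbours. Another Alu word, GGGATTAC, stood in 1.11%, 3.07%, 0.426% and 0.755% of the same sets, against 6.69 to 7.38% of their neighbours. With TGACCT counted only outside GAGGTCAG, the half-site was in 16.8% of DAXX peaks with DNMT1 and 26.3% of DAXX-only peaks (difference -9.54 points, interval -11.6 to -7.27), and in 14.1% of DNMT1 peaks on DAXX and 5.09% of DNMT1-only peaks (difference 8.96 points, interval 6.57 to 11.4). The neighbours then held it in 9.20 to 9.82%. Both differences thus kept their direction outside this word, and DNMT1-only peaks remained below their neighbours.

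The words most in excess over the neighbours differed between the lists. Among the words of 8 bases that at least 2% of a set's peaks held, ranked by the excess over the windows 2 kb away, the DAXX-only set was led by 10 words that all contain 6 bases of the AP-1 site, headed by ATGACTCA in 12.9% of peaks and 0.794% of neighbours. In DNMT1-only peaks the first 4 were GAGTGTAC (2.83% of peaks, 0.142% of neighbours), GTAGCCTA (3.4%, 0.236%), GTGTAGTA (2.08%, 0.142%) and CTACAGTC (3.02%, 0.236%). In DNMT1 peaks on DAXX GGCTACAA (2.13%, 0.0852%), AGTCATGC (3.49%, 0.170%) and GACTGTAC (3.83%, 0.213%) ranked among the first 4 beside ATGACTCA (14.2%, 0.852%). The 6-base word ACAGTC, in the forward or reverse direction, is part of CTACAGTC and GACTGTAC and not of the other words named here. It is part of 2 of the first 10 words of DAXX peaks with DNMT1 and 0 of 10 of DAXX-only peaks, and of 2 of 10 of DNMT1 peaks on DAXX and 3 of 10 of DNMT1-only peaks. It was chosen from these words after they were seen, and 6-base words were not ranked, so its shares are a description.

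ACAGTC stood in 23.9% of DAXX peaks with DNMT1 (280 of 1174, interval 21.4 to 26.4) and in 9.58% of DAXX-only peaks (5612 of 58587, interval 9.34 to 9.82). It stood in 26.3% of DNMT1 peaks on DAXX (309 of 1174, interval 23.8 to 28.9) and in 27.0% of DNMT1-only peaks (286 of 1060, interval 24.3 to 29.8), against 7.33 to 7.88% of the neighbours. The 2 DNMT1 sets differed by -0.66 points (interval -4.34 to 3.0), and by -8.54 points (interval -14.0 to -2.99) in the first 50% of each list. In that cut DNMT1 peaks on the last 50% of DAXX peaks counted as DNMT1-only. In every 25% step of the DAXX list the peaks with DNMT1 held it more often, with 21.3% and 9.92% in the first, 24.7% and 9.44% in the second, 23.2% and 9.56% in the third and 32.2% and 9.40% in the last. In the DNMT1 list it was commonest at the top, with 36.6% on DAXX and 41.6% off DAXX in the first 25% and 20.9% and 20.4% in the last. AP-1 or ACAGTC stood in 53.6% of DAXX peaks with DNMT1 and 42.3% of DAXX-only peaks, and in 52.1% of DNMT1 peaks on DAXX and 39.7% of DNMT1-only peaks. Both words together stood in 9.80% of DNMT1 peaks on DAXX and 6.04% of DNMT1-only peaks. No factor is named for ACAGTC here.

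**Figure D4:**
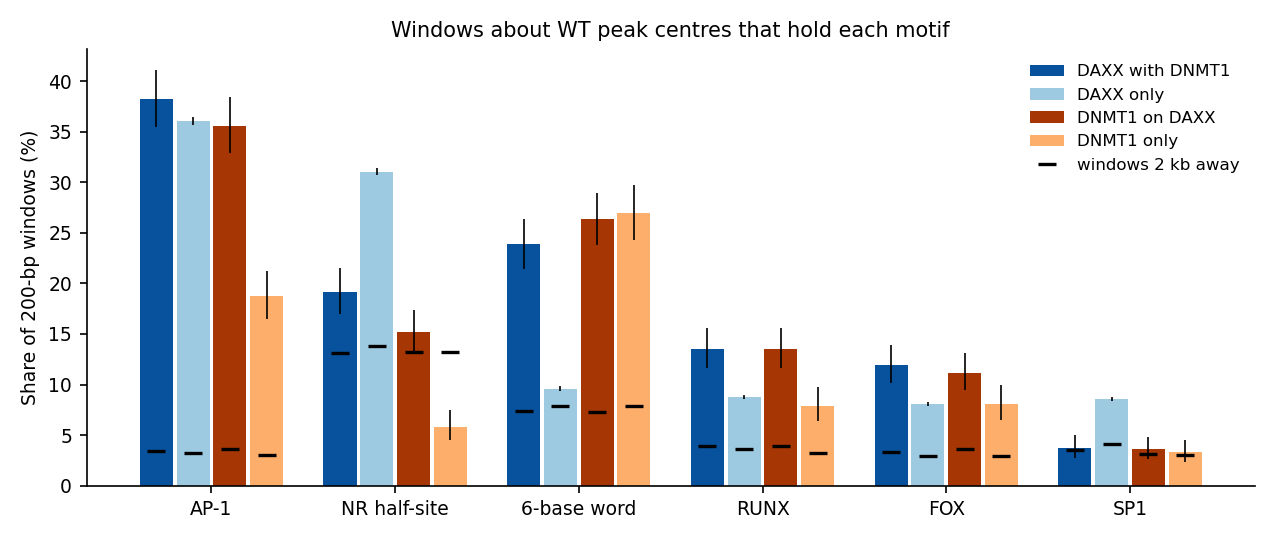
Share of 200-bp windows about the peak centre (y axis, %) that hold each motif in the 4 sets (bars, with exact 95% binomial intervals) and in windows 2 kb away (black dashes). NR half-site is the nuclear receptor half-site, and the 6-base word is ACAGTC, chosen after the values were seen, at 23.9 to 27.0% in the sets with a DNMT1 peak and 9.58% in DAXX-only peaks.

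The words also differed in where they lay. AP-1 sites were densest in the central 20 bp of the DAXX sets, with 8.43 sites per 100 DAXX peaks with DNMT1 and 7.67 per 100 DAXX-only peaks. In the DNMT1 sets the central bin had 5.20 sites per 100 peaks on DAXX and 2.55 per 100 DNMT1-only peaks, and the fullest bins lay beside it, with 5.54 at 20 bp before the centre on DAXX and 2.92 at 40 bp after it off DAXX. The half-site had 2.90 sites per 100 DAXX peaks with DNMT1 in the central bin and 6.46 per 100 DAXX-only peaks, and 2.04 per 100 DNMT1 peaks on DAXX and 0.566 per 100 DNMT1-only peaks. ACAGTC had 4.26 sites per 100 DNMT1 peaks on DAXX and 4.25 per 100 DNMT1-only peaks in the central bin. In DAXX peaks with DNMT1 the central bin had 2.04 and the bins at 20 bp before and after it 3.66 and 4.26, while DAXX-only peaks had 1.09 in the central bin. Where the 500-bp window held ACAGTC, the nearest copy lay a median 54 bp from the centre of DNMT1 peaks on DAXX and 68 bp from the centre of DAXX peaks with DNMT1.

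**Figure D5:**
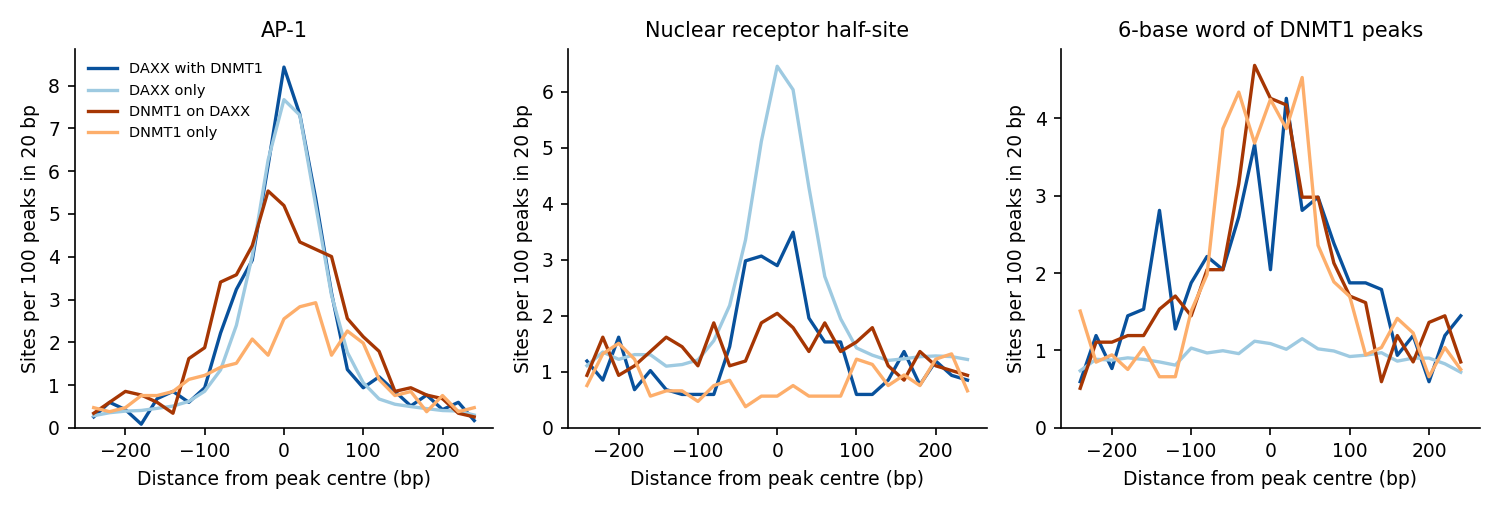
Sites per 100 peaks in bins of 20 bp (y axis) by distance from the peak centre in bp (x axis) for AP-1, the nuclear receptor half-site and the 6-base word of DNMT1 peaks, with 1 line for each set; the y axes differ in scale. AP-1 peaks at 8.43 in DAXX peaks with DNMT1, the half-site at 6.46 in DAXX-only peaks, and the 6-base word forms a broad central rise in both DNMT1 sets.

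Pooled over the lists, RUNX and FOX words were commoner in shared peaks than in the single peaks of either list. The RUNX word TGTGGTT, of the runt-domain factors, stood in 13.5% of DAXX peaks with DNMT1 and 8.78% of DAXX-only peaks (difference 4.77 points, interval 2.91 to 6.86), and in 13.5% of DNMT1 peaks on DAXX and 7.92% of DNMT1-only peaks (difference 5.62 points, interval 3.06 to 8.17). The FOX word TGTTTAC, of the forkhead factors, stood in 11.9% and 8.09% of the DAXX sets (difference 3.84 points, interval 2.09 to 5.83) and in 11.2% and 8.11% of the DNMT1 sets (difference 3.05 points, interval 0.59 to 5.49). By 25% step of the DAXX list the RUNX interval reached below 0 in the third and last steps and the FOX interval in the first and second, with a higher share in DAXX peaks with DNMT1 in all 4. By 25% step of the DNMT1 list RUNX was commoner on DAXX in all 4, and FOX in all but the second, with 9.38% on DAXX and 10.1% off DAXX. Neighbouring windows held RUNX in 3.21 to 3.92% and FOX in 2.92 to 3.58%. The SP1 word GGGCGG, of GC-rich promoters, stood in 3.75% of DAXX peaks with DNMT1 and 8.58% of DAXX-only peaks (difference -4.83 points, interval -5.80 to -3.56), and in 3.58% and 3.3% of the DNMT1 sets. The ETS word CCGGAA was in 4.17% and 4.16% of the DAXX sets and 3.83% and 2.64% of the DNMT1 sets, and the TEAD word GGAATG in 15.6%, 15.5%, 16.0% and 13.5% of the 4 sets. The long CTCF consensus stood in few peaks, with 3 of 1174 DAXX peaks with DNMT1 and 249 of 58587 DAXX-only peaks. It stood in 3 of 1174 DNMT1 peaks on DAXX and 2 of 1060 DNMT1-only peaks. In DAXX-only peaks its share was 0.425%, against 0.0265% of the neighbouring windows, a ratio of 16.1. For DAXX peaks with DNMT1 the shares were 0.256% and 0.0426%. A single strict consensus was searched, so these counts do not measure CTCF binding. The C/EBP palindrome TTGCGCAA was in 1, 72, 3 and 0 peaks of the 4 sets.

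The first peaks of each set were mostly intronic or intergenic. The first 5 DNMT1 peaks on DAXX held places 1 to 5 of the DNMT1 list. They lay in introns of ARID5B, which encodes a DNA-binding regulator (chromosome 10, 63836785 to 63836913), DSTYK, which encodes a kinase (chromosome 1, 205157419 to 205157547), and PTHLH, which encodes the parathyroid hormone-related protein (chromosome 12, 28120623 to 28120751), and between genes, 201 kb from the TSS of MBD2, whose product binds methylated DNA (chromosome 18, 51549970 to 51550098), and 31.9 kb from THEM4 (chromosome 1, 151913971 to 151914099). Their DAXX partners stood at places 4171, 26722, 4100, 11791 and 40426 of the DAXX list, for ARID5B, DSTYK, PTHLH, MBD2 and THEM4 in that order, so the first shared DNMT1 peaks did not sit on the first DAXX peaks. Of these 5 peaks the one near THEM4 lay on an H3(Lys4) region. The 200-bp windows at ARID5B, near MBD2 and near THEM4 held AP-1, and those at ARID5B, DSTYK and PTHLH held ACAGTC.

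The first 5 DNMT1-only peaks lay at places 9, 10, 12, 14 and 16 of the list. They were in introns of PARD3, a cell polarity gene (chromosome 10, 34410941 to 34411069), MAML3, a Notch co-activator gene (chromosome 4, 141071940 to 141072068), and ERN1, the gene of an endoplasmic reticulum stress sensor (chromosome 17, 62159628 to 62159756), at the promoter of PPP2R5A, which encodes a regulatory subunit of protein phosphatase 2A (chromosome 1, 212458701 to 212458829), and 58.9 kb from KDR, which encodes a VEGF receptor (chromosome 4, 56050591 to 56050719). Their distances to the nearest DAXX centre were 2869, 304, 2389, 567 and 2694 bp for PARD3, MAML3, ERN1, PPP2R5A and KDR. None of these 5 lay on an H3(Lys4) region. The PPP2R5A peak, 13 bp from the TSS, had 24 CpG and 72.5% GC in 200 bp, and the MAML3 peak had 15 CpG and 58.0% GC.

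Among DAXX peaks the first with DNMT1 was the fourth of the list, 147 bp from a TSS of NRP1, the gene of the co-receptor neuropilin 1 (chromosome 10, 33624957 to 33625129), and its DNMT1 peak held place 98. The next stood at places 110, 153, 188 and 205, 884 kb from TMEM132C and in introns of HEATR5A, SEMA5A, which encodes a semaphorin, and TBC1D8, a gene of the Rab GTPase-activating family. The DAXX-only peaks at places 1, 2, 3, 5 and 6 lay in introns of NRP1, RAD51B, a homologous recombination gene, ANXA11, the annexin A11 gene, and CCN4, a matricellular protein gene, and 142 kb from KTN1. Half-sites TGACCT stood in 4 of the first 5 peaks of either DAXX set, in windows where AP-1 stood in 0 of 5 with DNMT1 and 2 of 5 without.

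Genes with many peaks of one kind were mostly long. Counted over the gene body with 10 kb to either side, UBE2E2, which encodes a ubiquitin-conjugating enzyme, had the most shared DNMT1 peaks, 5, with 0 DNMT1-only peaks and 13 DAXX peaks over 389 kb. The 5 genes with 4 shared peaks were IGF2BP2, MACROD2, MAML3, PRKCA and TBC1D8, with 16, 48, 31, 35 and 19 DAXX peaks. PARD3 had 9 DNMT1-only peaks and 0 shared ones among its 34 DAXX peaks. It was followed by CTNNA3 and GPHN with 6 DNMT1-only and 1 shared peak each, and by others that include CCDC192 with 4 and 0. PARD3 lies mostly in the 30 to 35 Mb bin of chromosome 10 and GPHN in the 65 to 70 Mb bin of chromosome 14, which are among the 10 fullest bins. The genes with most DAXX peaks and no DNMT1 peak were KCNMA1 (51), a potassium channel gene, ROBO2 (37), an axon guidance receptor gene, HIVEP3 (34), ARHGAP26, DDAH1 and KAZN (31 each), ZNF385D (30) and ALK (29).

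Most genes with a DNMT1 peak near a TSS also had a DAXX peak there. Of 19785 protein-coding genes 51.2% had a DAXX peak within 10 kb of a TSS, 2.55% had a DNMT1 peak and 1.37% had a DNMT1 peak that lay on DAXX. Of the 504 genes with DNMT1, 438 (86.9%) also had DAXX, on the same site or another, which were 4.32% of the 10137 genes with DAXX. The other 66 genes had DNMT1 and no DAXX peak within 10 kb, and 9582 genes had neither.

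The gene lists, of known function or expression, were read against these shares, 51.2% of all genes for DAXX and 2.55% for DNMT1. FOSB was the member of the AP-1 subunits with DNMT1, on DAXX in an exon 503 bp from a TSS, and 9 of 10 subunit genes had DAXX. Of 19 epithelial-mesenchymal transition genes 14 had DAXX and 2 had DNMT1, both on DAXX, at ZEB2 (1600 bp upstream, place 241 of the DNMT1 list) and SNAI1 (6138 bp upstream, place 1671), which encode repressors of E-cadherin. Of 23 nuclear receptor genes 22 had DAXX and 3 had DNMT1, none on DAXX, at RARG, PPARG and HNF4G. PPARG had its first DAXX peak 691 bp from a TSS and its DNMT1-only peak 8198 bp upstream of one. SPRED2, which encodes an inhibitor of RAS signalling, had a DNMT1 peak on DAXX 158 bp upstream and a DNMT1-only peak 970 bp upstream, and EPHA2 had a DNMT1-only peak 9058 bp downstream, the 2 of 18 EGFR ligand and feedback genes with DNMT1. Of 24 NF-kB and cytokine genes IL6 had a DNMT1 peak on DAXX in its promoter and CXCL2 a DNMT1-only peak 9970 bp upstream, and 21 had DAXX. The DAXX partners at FOSB, ZEB2, SNAI1, SPRED2 and IL6 stood at places 35112, 37157, 6003, 11552 and 22602 of the DAXX list.

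In further lists 1 or 2 members carried DNMT1. UVRAG was the 1 with DNMT1 among 38 core autophagy genes, on DAXX 486 bp downstream of a TSS, with DAXX at 24 of the 38. ADAM17, the gene of a shedding protease, was the 1 of 19 urokinase and protease genes, and its peak lay on DAXX. KRT19 was the 1 of 19 basal and squamous genes, with a DNMT1-only peak 9218 bp downstream of a KRT19 TSS. The centre of that peak counted as promoter, and 9218 bp is outside the promoter limits of that TSS. Of 24 imprinted genes GRB10 had DNMT1 on DAXX 1469 bp upstream and L3MBTL1 had DNMT1 with no DAXX 353 bp upstream. Of 35 cytosolic ribosomal protein genes RPS14 had DNMT1 on DAXX 76 bp upstream of a TSS and RPL27 a DNMT1-only peak. The DAXX partners at UVRAG, ADAM17, GRB10 and RPS14 stood at places 45808, 8732, 721 and 9711 of the DAXX list. The background was 2.55% of all genes, and the highest share was 13.0%, at 3 of 23 nuclear receptor genes. Counts of 1 to 3 genes in a list are small, and no list was tested against the background.

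In 7 lists no gene had a DNMT1 peak within 10 kb. Of all genes 2.55% had one and 51.2% had a DAXX peak. At 2.55%, a count of 0 in a list of 15 to 27 genes is near the background. DAXX stood at 11 of 15 genes of DNA methylation and demethylation enzymes, where ZBTB33, which encodes a methyl-CpG binding protein, and UHRF1, which encodes the protein that recruits DNMT1 to replicated DNA, had the earliest DAXX peaks. It stood at 18 of 19 TGF-beta pathway genes, at 15 of 17 YAP and TEAD targets and at 14 of 18 androgen-regulated and luminal genes. It stood at 7 of 20 genes often hypermethylated in prostate cancer, among them RARB and EDNRB, and at 3 of 20 cancer-testis antigen genes. The 27 olfactory receptor genes of chromosome 11, taken as silent in this cell type without expression data here, had 0 DAXX and 0 DNMT1 peaks. An H3(Lys4) region stood within 1 kb of a TSS of 11 of the 20 hypermethylated genes, 2 of the 20 cancer-testis genes and 0 of the 27 olfactory genes, against 58.1% of all genes.

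The sets were also looked up in the lists of the knockdown cells. A K/D DAXX peak lay on 52.3% of DAXX peaks with DNMT1 (614 of 1174) and 48.3% of DAXX-only peaks (28287 of 58587), and on 51% of DNMT1 peaks on DAXX (599 of 1174) and 7.36% of DNMT1-only peaks (78 of 1060). Of those 78 peaks 63 lay on K/D DAXX peaks that overlapped no WT DAXX peak. A K/D DNMT1 peak lay on 8.69% of DNMT1 peaks on DAXX and on 8.49% of DNMT1-only peaks, and on 8.69% of DAXX peaks with DNMT1 and 0.210% of DAXX-only peaks. The top of the DNMT1 list differed from these pooled shares. The first 5 DNMT1 peaks on DAXX, named above, each had a K/D DNMT1 peak. Of them only the peak near MBD2 also had a K/D DAXX peak. Among the first 5 DNMT1-only peaks those at MAML3, PPP2R5A and near KDR had a K/D DNMT1 peak. The K/D DNMT1 list held 595 peaks on these chromosomes, with 0.0663% of its 12050101 tags in peaks. The K/D DAXX list held 42876, with 6.83% of its 18210051 tags in peaks. A site with no K/D peak was not called, and it is not shown to have lost the protein.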

How the data were processed

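Per the labels and the study's methods, chromatin was cross-linked in 2 steps, bases were called with CASAVA 1.8.2, the authors aligned reads by Bowtie2 2.1.0 (hg19) and kept unique alignments, and HOMER 4.6 found the peaks. Per the file headers, each library joins an old and a new sequencing run, and peaks needed a 4-fold excess over input (Poisson p-value limit 0.0001) and, for DAXX and DNMT1, over the surrounding 10 kb, at an FDR of 0.001. Peak positions (start and end) were used as deposited, with no other unit. The score column of the deposited lists is 1 in all rows, so place in the list stood for strength.

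Overlaps, motifs and intervals were computed in Python 3.11.15 (numpy 2.4.6, scipy 1.17.1, matplotlib 3.10.9) and tested on simulated data. Shares have exact (Clopper-Pearson) 95% intervals, and differences of shares Newcombe's. Genes came from GENCODE release 44 mapped to GRCh37 (19785 protein-coding genes, 63781 transcript starts), and a centre counted as promoter before exon, and as exon before intron or intergenic sequence. The 17 motifs were searched on both strands in 200 bp about the centre, in windows 2 kb to either side and in 57154 grid windows. All 404 entries of the 19 gene lists matched, 5 by an older symbol. The members and lists were chosen with earlier results of these data known. Named peaks were the first 5 of each set in deposited order, named genes the 8 with most peaks of a kind (ties in alphabetical order), and for each list up to 3 genes whose shared peak within 10 kb of a TSS comes first in the DNMT1 list, otherwise up to 2 by DAXX. List members with a DNMT1-only peak were named beyond this rule, after their values were seen. Some genes that the rule names are not reported here.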

Additional observations from a re-analysis of the deposited data

Results flagged for a closer look

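Outside the chromosomes compared, the WT DAXX list had 17 peaks on other contigs, above the 3 that a count of 0 allows, and the WT DNMT1 list had 3. They were not analysed here, because the reference used names these contigs differently.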

How the results depend on the processing

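Differences are in percentage points, shared minus single peaks of the same list. The share of DNMT1 peaks on DAXX was 46.2% with centres within 100 bp, 36.5% with at least 50% of each peak in common, 45.7% in the first 50% of each list, 55.3% with peaks resized to 200 bp and 54.9% without chromosomes 8 and 10, against 52.6%. The share of DAXX peaks with DNMT1 was 1.73%, 1.36% and 1.71% under the first 3 of these, against 1.96%. In the first 50% of each list the promoter difference of the DAXX sets was -0.79, the H3(Lys4) differences 1.22 (DAXX) and 0.10 (DNMT1), the AP-1 differences -2.79 (DAXX, interval -6.94 to 1.54, across 0 as in the full list) and 6.39 (DNMT1), the half-site difference of the DNMT1 sets 12.9, the ACAGTC difference of the DNMT1 sets -8.54, and the DAXX differences in mean GC -2.00 and in CpG per 200 bp -0.59. With 2500 bp to either side of a TSS the promoter difference of the DAXX sets was -3.69, and with centres within 1000 bp of an H3(Lys4) region the differences were 10.2 (DAXX) and 16.5 (DNMT1). In 100 bp about the centre the AP-1 and half-site differences of the DNMT1 sets were 9.55 and 5.10, and the ACAGTC difference of the DAXX sets 9.04. Genes with DAXX were 31.5% within 2 kb of a TSS, 81.0% within 50 kb and 29.7% with the first 50% of peaks, and genes with DNMT1 on DAXX were 0.571%, 4.54% and 0.607%. The first 50% alternative has fewer peaks in both lists by construction. A peak whose partner lay in the last 50% of the other list counted as single there, so its values do not describe the stronger peaks alone. No other cause was tested. In 45 other comparisons the value stayed within the main interval and kept its direction where that interval excluded 0. The alternatives for ACAGTC, the half-site outside GAGGTCAG and the 10 bins of 5 Mb were chosen after the data were seen. No paired analysis was possible because each group holds 1 library. The depth of the DNMT1 library in peaks limits what can be said of sites with no DNMT1 call.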
